A study of Mus musculus with 12 samples.

Results

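Hox genes encode homeodomain transcription factors that pattern the body axis and act again in blood, where Hoxa9, Hoxa10 and Hoxb4 are known for roles in stem and progenitor cells. The peaks described here are those that the master peak-list of a mouse ATAC-seq study assigned to a Hox gene. These are peaks whose nearest promoter in the annotation of the list carried a name made of Hox, a cluster letter and a number. They numbered 25 of the 84243 peaks (0.030%) and named 21 of the 39 mouse Hox genes. Hoxa9, Hoxa10 and Hoxb4, the genes taken as markers of the family in blood, had 1 peak each. The set was selected by name, so this is no check of its label.

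ATAC-seq uses a transposase that cuts open DNA and adds sequencing adapters, so that reads mark accessible sites. Cells were sorted from adult wild-type C57BL/6 mice aged 8 to 12 weeks, with no treatment, in 2 replicates of each of 6 types. Hematopoietic stem cells (HSCs), megakaryocyte progenitors (MkPs), erythroid progenitors (EPs), granulocyte/macrophages (GMs) and B cells were taken from marrow. The source of the T cells was the thymus. The sorts used surface markers, such as cKit, Sca1 and Slamf1 without Flk2 or lineage markers for HSCs. The authors called peaks in each cell type, then joined and filtered them into 1 annotated list for all 12 samples. By the study's own counts, each cell type's list held more promoter peaks than the joined list, so some called peaks were not kept. Whether any of those lay at Hox genes is unknown. The joined list holds 0 columns of values per sample and does not say in which cell type a peak was open. The number of reads behind a peak, the spread between replicates and any difference between HSCs and mature cells are therefore unknown, and the comparisons below are between genes, clusters and peaks, without a test.

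In mammals the Hox genes lie in 4 clusters, HoxA to HoxD, and genes in the same place of each cluster form a paralog group, numbered 1 to 13. All genes of a cluster are transcribed in the same direction, with group 1 at the 3′ (anterior) end and group 13 at the 5′ (posterior) end. Genes near the 3′ end are known to be used earlier and further forward in the embryo. In the RefSeq annotation of GRCm38.p6 (mm10), the clusters ran from the outermost to the outermost Hox gene over 106 kb for HoxA (chr6:52155367-52260880, minus strand), 174 kb for HoxB (chr11:96194316-96368253), 116 kb for HoxC (chr15:102921131-103036852) and 96.9 kb for HoxD (chr2:74668225-74765142), the last 3 on the plus strand.

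Short stretches of peaks that the results turn on are shown here from RefSeq GRCm38.p6, 5′ to 3′ on the strand of the Hox gene, with the consensus words searched below in capitals. The Hoxa9 stretch (chr6:52226214-52226243) and the Hoxa10 stretch (chr6:52240707-52240736), both minus strand, each start with the CCAAT word of the factor NF-Y. The Hoxa4 promoter stretch (chr6:52191826-52191975, minus strand) has an NF-Y word on the opposite strand and ends with the TGACAG word of the TALE homeodomain proteins. The Hoxb8 stretch (chr11:96278777-96278856, plus strand) lies upstream of the gene and has a pair of AGATAA words of the GATA factors, both on the opposite strand.
Hoxa9 peak: CCAATgggggcgcgggcgccggcaacttat
Hoxa10 peak: CCAATttgcatatttggaatgcgccgctat
Hoxa4 promoter peak: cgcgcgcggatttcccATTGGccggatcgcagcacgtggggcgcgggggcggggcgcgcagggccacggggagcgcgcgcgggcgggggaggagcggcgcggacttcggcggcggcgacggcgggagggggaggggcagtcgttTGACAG
Hoxb8 upstream peak: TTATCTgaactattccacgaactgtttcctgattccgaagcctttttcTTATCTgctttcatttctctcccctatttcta

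A peak was counted as a promoter peak when its centre was no more than 500 bp from the transcription start site (TSS). Such peaks were found for 10 of the 39 Hox genes (25.6%). Over all 21774 protein-coding genes of RefSeq the share was 52.9%, so Hox genes had a promoter peak less frequently than genes at large in this list. A peak at any distance was assigned to 21 Hox genes (53.8%), against 74.5% of protein-coding genes. Measured instead from every curated RefSeq TSS, whatever name the list gave, again 10 Hox genes (25.6%) had a peak centre within 500 bp, beside 60.4% of the 21000 genes with a curated TSS. For all 25 peaks the deposited distance was equal to that from the nearest curated Hox TSS. The Hoxd3 promoter peak, 174 bp from the Hoxd3 TSS, was closer to a curated TSS of Gm38462, at 109 bp.

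HoxA had the most peaks. Of its 11 genes, 8 had an assigned peak and 4 a promoter peak, with 10 peaks in all. HoxB followed with 8 peaks for 6 of its 10 genes and 3 promoter peaks, HoxC with 4 peaks for 4 of 9 genes and 1 promoter peak, and HoxD with 3 peaks for 3 of 9 genes and 2 promoter peaks. The share of genes with a promoter peak was 36.4%, 30.0%, 11.1% and 22.2% from HoxA to HoxD, each below the 52.9% of all protein-coding genes. With 9 to 11 genes in a cluster, these shares rest on 1 to 4 genes each.

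**Figure D1:**
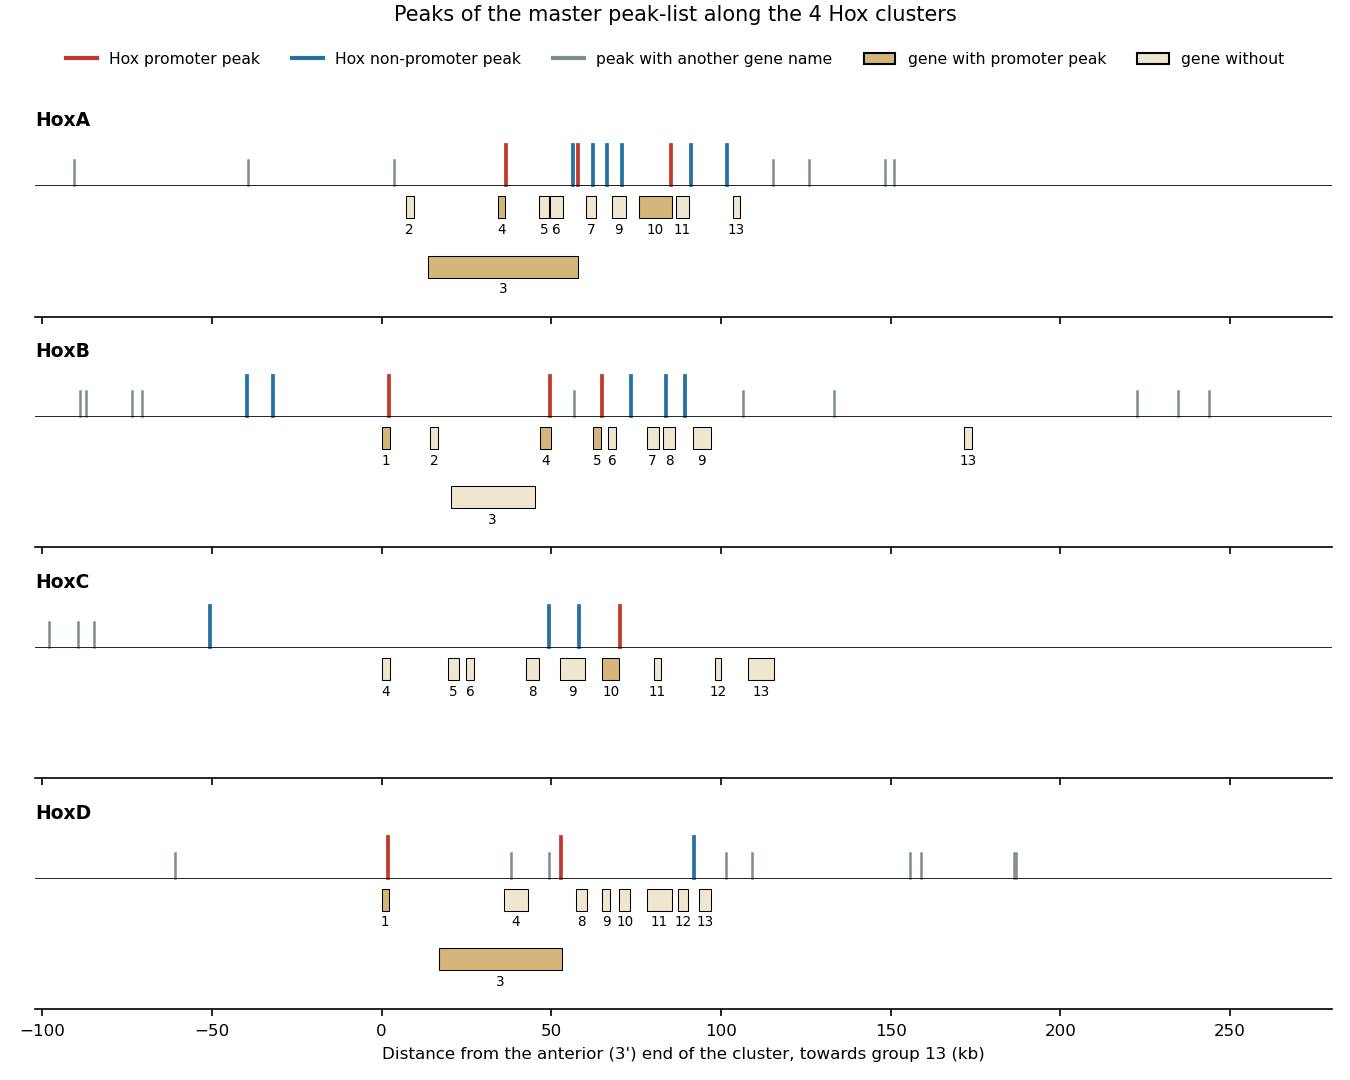
Each row is a cluster, drawn from its anterior (3′) end in kb, with genes as boxes numbered by paralog group (group 3 one step lower) and peak centres within 100 kb as ticks: red for Hox promoter peaks, blue for other Hox peaks, grey for peaks with another gene name (1 Hox gene and its peak are not drawn). HoxA holds the most peaks, while the posterior end of HoxC has no peak beyond that of Hoxc10.

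In HoxA the promoter peaks included those of Hoxa3, Hoxa4 and Hoxa10. The Hoxa3 promoter peak (chr6:52212857-52213355) was centred 39 bp upstream of the TSS. The Hoxa4 peak (chr6:52191723-52192221) was centred 269 bp upstream, inside intron 2 of the long Hoxa3 transcript. The Hoxa10 peak (chr6:52240340-52240838) was centred 265 bp downstream of the TSS, in the 5′ UTR of exon 1.

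Hoxa3 and Hoxa7 had the most peaks of the cluster, 2 each. The additional Hoxa3 peak (chr6:52211502-52212000) lay 1316 bp downstream of the TSS in intron 1, on a CpG island by the authors' annotation. The Hoxa7 peaks were centred 983 bp downstream in the 5′ UTR (chr6:52217341-52217839) and 3188 bp upstream between genes (chr6:52221512-52222010), the latter also annotated to a CpG island. Hoxa9, a gene known for driving self-renewal of blood progenitors, had its only peak (chr6:52225868-52226366) 1253 bp downstream of the TSS, in exon 1, which is 5′ UTR in some transcripts and coding in others. The list gave Hoxa11 a peak 685 bp upstream, which the annotation of the list also classed as promoter, and Hoxa13 one 3766 bp downstream, past its 3′ end, the farthest of the cluster.

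In HoxB, promoter peaks were given to Hoxb1, Hoxb4 and Hoxb5. The Hoxb4 peak (chr11:96318399-96318897) was centred 381 bp downstream of the TSS in the 5′ UTR of exon 1, and Hoxb4 is the member known for expanding blood stem cells when overexpressed. The Hoxb5 peak (chr11:96302997-96303495) was centred 266 bp upstream of the TSS. Hoxb1 had 3 peaks, more than any other Hox gene: 1 in coding exon 1, 468 bp downstream of the TSS (chr11:96365977-96366475), and 2 beyond the anterior end of the cluster. The central genes Hoxb6, Hoxb7 and Hoxb8 had 1 non-promoter peak each, 4360, 2018 and 2943 bp upstream of their TSSs, and that of Hoxb7 fell in the 3′ UTR of the neighbouring Hoxb8.

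HoxC had a promoter peak at Hoxc10 only (chr15:102966301-102966799), centred 246 bp upstream of the TSS. Hoxc9 had a peak 1787 bp downstream in intron 1 (chr15:102978570-102979068) and Hoxc8 a peak 2930 bp upstream (chr15:102987360-102987858). The peak named for Hoxc4 (chr15:103087223-103087721) lay 53077 bp downstream of its TSS, the farthest of all Hox peaks. In HoxD, the promoter peaks of Hoxd3 (chr2:74711918-74712416) and Hoxd1 (chr2:74763042-74763540) were centred 174 and 311 bp downstream of the TSS. The third HoxD peak was 2009 bp upstream of Hoxd12 (chr2:74672755-74673253).

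No peak was assigned to the other 18 genes: Hoxa2, Hoxa5 and Hoxa6 in HoxA, Hoxb2, Hoxb3, Hoxb9 and Hoxb13 in HoxB, Hoxc5, Hoxc6, Hoxc11, Hoxc12 and Hoxc13 in HoxC, and Hoxd4, Hoxd8, Hoxd9, Hoxd10, Hoxd11 and Hoxd13 in HoxD. A further 11 had only non-promoter peaks: Hoxa7, Hoxa9, Hoxa11, Hoxa13, Hoxb6, Hoxb7, Hoxb8, Hoxc4, Hoxc8, Hoxc9 and Hoxd12. Just inside the promoter limit was Hoxb1 at 468 bp, and just outside it Hoxa11 at 685 bp and Hoxa7 at 983 bp.

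Along the paralog groups, promoter peaks were found in groups 1, 3, 4, 5 and 10 and in no other. In group 1 these included Hoxb1 and Hoxd1. In group 3 they were Hoxa3 and Hoxd3 but not Hoxb3, in group 4 Hoxa4 and Hoxb4 but not Hoxc4 or Hoxd4, in group 5 Hoxb5 alone, and in group 10 Hoxa10 and Hoxc10 but not Hoxd10. No peak was assigned to either gene of group 2. Group 9, the group of Hoxa9, had no promoter peak in any of its 4 genes, and the nearest peaks to their TSSs were 1253 to 14404 bp away. Counted by class, 5 of 8 anterior genes (groups 1 to 3, 62.5%), 3 of 15 central genes (groups 4 to 8, 20%) and 2 of 16 posterior genes (groups 9 to 13, 12.5%) had a promoter peak. The median distance from a TSS to the nearest peak centre, of any name, was 390 bp in the anterior, 3079 bp in the central and 5512 bp in the posterior class. HoxC, the cluster with the lowest share of genes with a promoter peak, has no gene in groups 1 to 3. Class and cluster are therefore not independent, and the part of cluster in the class differences was not tested.

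**Figure D2:**
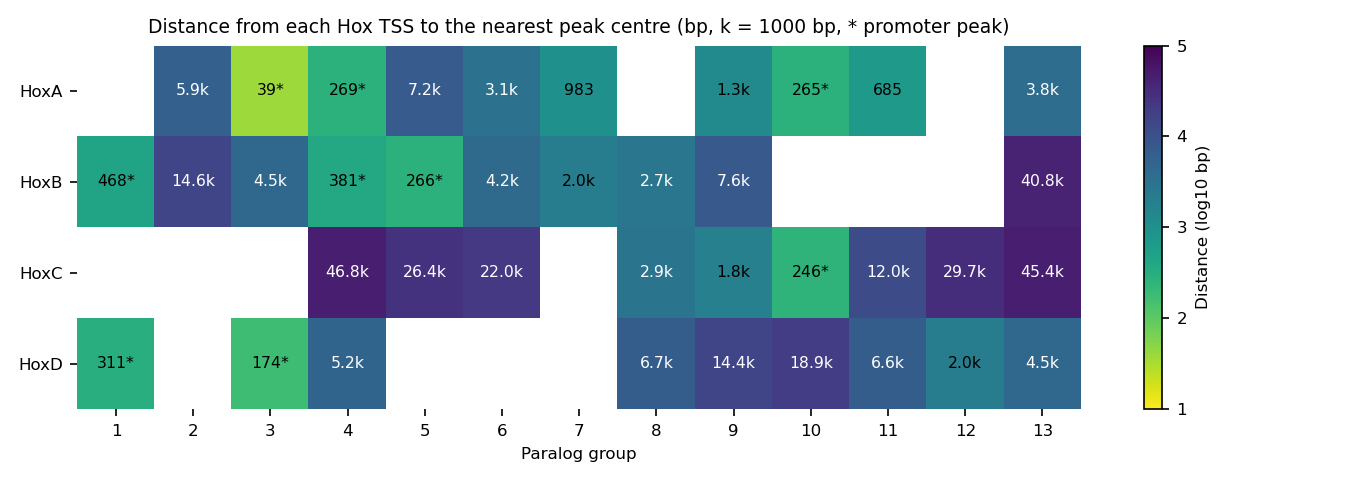
Each filled cell is a Hox gene, placed by cluster (rows) and paralog group (columns), and its number and colour give the distance from its nearest curated TSS to the nearest peak centre in bp (colour on a log10 scale, stars for genes with a promoter peak, blank where there is no gene or it is not drawn). The 38 genes drawn run from 39 bp at Hoxa3 to 46786 bp at Hoxc4, and HoxC has far distances at both of its ends.

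Clusters differed in these distances too. The median over genes was 983 bp in HoxA, 3448 bp in HoxB, 5208 bp in HoxD and 21953 bp in HoxC. Over all 39 Hox genes, 23 had a peak centre within 5 kb of a TSS and 10 had none within 10 kb. The share of all protein-coding genes at these distances was not counted. Whether the Hox counts are low or high for this list is therefore not shown. The Hox genes farthest from any peak were Hoxc4 (46786 bp), Hoxc13 (45419 bp) and Hoxb13 (40769 bp). Hoxb13 is set apart from the rest of HoxB by a long gap without Hox genes.

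Because several Hox genes have a long 5′ UTR, the first coding base was also taken as the reference point, a choice made after the values were seen. A peak centre lay within 500 bp of it in 11 of 39 Hox genes (28.2%), against 40.5% of the 21000 coding genes. Of the 10 genes with a promoter peak, 8 were again included. Hoxa9 and Hoxa7 came in, with peak centres 13 and 185 bp from the start codon, as did Hoxd4, whose start codon was 93 bp from the centre of a peak that the list named Mir10b. The start codon itself was inside a peak in 6 genes, among them Hoxa7, Hoxa9, Hoxb4, Hoxd1 and Hoxd4. Hoxa3 and Hoxd3 dropped out, since their curated TSSs lie 40418 and 32019 bp from their start codons, and no peak centre came closer to these than 13719 and 16826 bp. By start codon the classes held 3 of 8 anterior, 5 of 15 central and 3 of 16 posterior genes. The lead of the anterior class in promoter peaks thus rested in part on the far upstream TSSs of Hoxa3 and Hoxd3.

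**Figure D3:**
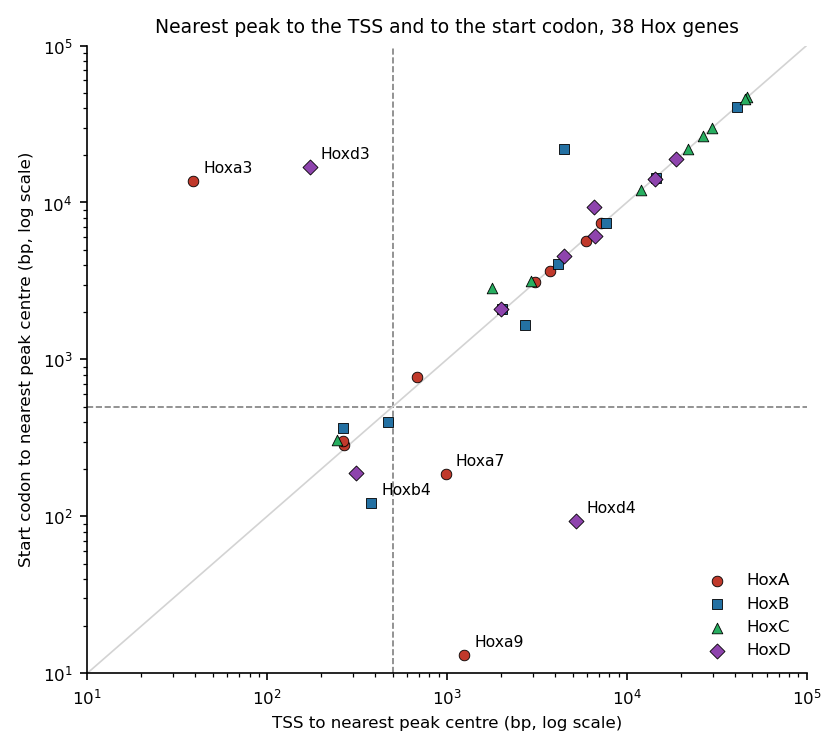
Each point is 1 of 38 Hox genes, with the distance from its TSS (x axis) and from its start codon (y axis) to the nearest peak centre in bp, both axes logarithmic, shapes for clusters and dashed lines at 500 bp. Most genes lie near the diagonal, while Hoxa3 and Hoxd3 are close to a peak only at the TSS and Hoxa9, Hoxa7 and Hoxd4 only at the start codon.

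The peak named Mir10b (chr2:74726937-74727435) also stood out by sequence. All 31 peaks that were named for a Hox gene or lay inside a cluster were aligned locally with each other. A match gave 1 point, a mismatch lost 1 point, and gaps lost further points. The Hoxb4 peak and the Mir10b peak scored 84, the next of the 465 pairs 25, and the median pair 13. Their alignment had 176 identical bases in 239 columns (73.6%), with gapped columns left out. It ran over 255 bp of the Hoxb4 peak and 240 bp of the Mir10b peak, so the share would be lower with gaps counted. It spanned the start codons of Hoxb4 and Hoxd4. Of the columns without a gap, 90 of 119 were identical (75.6%) in coding sequence and 86 of 120 (71.7%) before the start codon. The best-matched 30 bases of the 5′ UTR around the TALE word are at chr11:96318665-96318694 in Hoxb4 and chr2:74727186-74727215 in Hoxd4, both plus strand, with capitals for the 27 bases that are identical.
Hoxb4: AACTTTgTTCAcTTGACAGtAAGTAGGAGG
Hoxd4: AACTTTaTTCAgTTGACAGcAAGTAGGAGG

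In the other clusters, the best ungapped match to this stretch was 20 of 30 bases anywhere in HoxA and 19 in HoxC, at neither Hoxa4 nor Hoxc4. The stretch was picked as the best match between Hoxb4 and Hoxd4, which favours lower counts elsewhere. What unrelated sequence of that length would give was not tested, so no conclusion is drawn from these counts. The best-matched coding stretch was shared by all 4 genes of the group, as paralogs share coding sequence. It is shown with capitals for the bases of Hoxb4 and Hoxd4 that are identical in both (28 of 30), and for the bases of Hoxa4 (25 of 30) and Hoxc4 (23 of 30) that are identical to Hoxb4. The positions are chr11:96318809-96318838, chr2:74727318-74727347, chr6:52191620-52191649 (minus strand) and chr15:103034762-103034791.
Hoxb4: GACCCCAAGTTcCCTCCGTGCGAGGAgTAT
Hoxd4: GACCCCAAGTTtCCTCCGTGCGAGGAaTAT
Hoxa4: GAgCCCAAGTTCCCTCCtTtCGAGGAGTtc
Hoxc4: GAtCCgAAaTTtCCTCCaTGCGAaGAaTAT

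The matching stretch was thus in or beside a peak in Hoxb4, Hoxd4 and Hoxa4 (337 bp from a peak centre) and 47168 bp from any peak centre in Hoxc4. The other pairs of paralog peaks gave no such match. The 17 pairs between peaks named for paralogs scored 10 to 19 with a median of 12, and the 278 other pairs between peaks of different Hox genes scored 8 to 25 with a median of 13. This held also for the Hoxb8 and Hoxc8 peaks, which sat at nearly the same place, 2943 and 2930 bp upstream, and scored 12.

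Distal peaks were rare. Of the 25 Hox peaks, 10 (40.0%) were promoter peaks, against 15.6% of the whole list, and 3 (12.0%) lay over 10 kb from the TSS, against 60% of the list. The 15 non-promoter peaks had a median distance of 2930 bp, against 22261 bp for all non-promoter peaks. Of these 15, 12 (80%) were within 5 kb of a TSS, as were 16.2% of non-promoter peaks in the list. Hox genes lie close together, and the part of this in the short distances was not tested. The 3 distal peaks were all outside the clusters: 2 of Hoxb1, 31896 and 39639 bp past the anterior end of HoxB, and that of Hoxc4, 50620 bp past the anterior end of HoxC.

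The distal Hoxb1 peaks held several of the words searched. In the nearer one, 34391 bp downstream of the TSS (chr11:96399900-96400398, intergenic), 3 GATA words and a TALE word were found. The farther one, 42134 bp downstream (chr11:96407643-96408141, intergenic), had the most kinds of word of all Hox peaks, 5 of the 9 searched. A stretch of the farther one is shown (chr11:96407709-96407788, plus strand), where the HOX-PBX word TGATTNAT and the CDX word TTTATG overlap, followed by a TALE and a GATA word on the opposite strand. It held the only exact HOX-PBX word in the 25 peaks, and HOX-PBX is the joint site of a Hox protein and its Pbx partner.
Hoxb1 peak at 42134 bp: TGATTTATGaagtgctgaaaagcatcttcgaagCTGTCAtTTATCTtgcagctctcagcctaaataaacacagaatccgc

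Peaks were not spread evenly over the clusters. HoxA had 11 peak centres inside its interval, or 1.04 per 10 kb, which was 3.07 times the 0.340 per 10 kb of chromosome 6. HoxB, with 9 peaks, and HoxD, with 5, had 0.517 and 0.516 per 10 kb, or 1.11 and 1.38 times the values of chromosomes 11 and 2. HoxC had 3 peaks, or 0.259 per 10 kb, 0.738 times that of chromosome 15. The chromosome values were not matched for gene density, and its part in these ratios was not tested. In the 100 kb on either side, the density was 0.30, 0.45, 0.20 and 0.35 per 10 kb from HoxA to HoxD. Repeats took 13.4 to 24.6% of the bases of the 4 intervals, against 30.6 to 33.8% of their chromosomes, and reads that map to several places were left out of these data.

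Long stretches had no peak of any name in the filtered list. The longest that touched HoxC ran over 205 kb (chr15:102762003-102966550) from a peak named Gm38436 to the Hoxc10 promoter and took in Hoxc11, Hoxc12 and Hoxc13. Another, on the anterior side of the Hoxc8 peak, took in Hoxc4, Hoxc5, Hoxc6 and Hoxc8. In HoxB, 89.3 kb up to a peak named Gm53 took in Hoxb13, and 47578 bp without a peak separated Hoxb4 from Hoxb1 and took in Hoxb2 and Hoxb3. In HoxD, 39163 bp between the Hoxd12 and Hoxd3 peaks took in Hoxd8, Hoxd9, Hoxd10, Hoxd11 and Hoxd12. The longest stretch between peaks inside HoxA was 33042 bp, from a peak in Hotairm1 to the Hoxa4 promoter peak, and took in Hoxa2 and Hoxa4.

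Besides 22 Hox peaks, the intervals held 6 peaks with other names, all of non-coding genes. In HoxA this was Hotairm1, an RNA gene at the anterior end of the cluster, with a peak 406 bp downstream of its TSS (chr6:52158681-52159179). In HoxB these were Gm53, Mir196a-1 and Hoxb5os, with centres 16575, 3410 and 4798 bp upstream of their TSSs. In HoxD, Hoxd3os1 had a peak 164 bp downstream of its TSS (chr2:74715717-74716215), inside intron 1 of Hoxd3, and Mir10b the peak described above, 1116 bp downstream. Counting also names that go on after the number, such as Hoxd3os1 and Hoxb5os, gave 27 peaks in place of 25. Of the 25 Hox peaks, 8 (32.0%) had their centre inside a curated non-coding transcript, each on the strand opposite to the Hox gene, against 6.89% of the list inside a non-coding transcript on either strand. They included the promoter peaks of Hoxa3, Hoxa4, Hoxb5 and Hoxd3 and the non-promoter peaks of Hoxa3, Hoxa11 and Hoxb6.

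The microRNAs of the clusters are shown with their seed, bases 2 to 8, in capitals, from RefSeq GRCm38.p6. They fell into 2 seed groups that repeat across clusters and the separate Mir615 of HoxC. Mir10a (chr11:96317186-96317208), next to Hoxb4, and Mir10b (chr2:74726074-74726096), inside the Hoxd4 gene, share the seed ACCCUGU and were 1451 and 1101 bp from the nearest peak centre. Mir196a-1 in HoxB (chr11:96265187-96265208), Mir196a-2 in HoxC (chr15:102973365-102973386) and Mir196b in HoxA (chr6:52230129-52230150), each between groups 9 and 10 or on the 5′ side of group 9, share the seed AGGUAGU and were 3443, 5444 and 4022 bp from it. Mir615 was 27327 bp from the nearest peak centre.
mmu-miR-10a-5p: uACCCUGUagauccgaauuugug
mmu-miR-10b-5p: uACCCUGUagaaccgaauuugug
mmu-miR-196a-5p: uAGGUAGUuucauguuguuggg
mmu-miR-196b-5p: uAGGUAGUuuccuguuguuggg

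Among the genes chosen to mark the borders of the clusters, the adaptor protein genes Skap2 (143 kb past HoxA) and Skap1 (96.3 kb past HoxB), which sit on the anterior side, had 10 and 4 assigned peaks, with 1 promoter peak at Skap2 and 0 at Skap1. Evx1, 52.6 kb past the posterior end of HoxA, and Evx2, 6.71 kb past that of HoxD, are homeobox genes related to Hox genes, and each had 2 peaks but no promoter peak. Ttll6 beside HoxB, Calcoco1 and Smug1 beside HoxC and Mtx2 beside HoxD each had 1 promoter peak.

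Non-promoter Hox peaks were richer in GC and CpG than most non-promoter peaks of the list. Their median GC content was 57.1% (36.1 to 63.5%), against 47.7% for all non-promoter peaks, and 13 of 15 lay above that median. Their median ratio of observed to expected CpG was 0.66, against 0.22, and 14 of 15 lay above that. Of the 15, 8 (53.3%) had GC above 50% together with a CpG ratio above 0.6, as did 3.93% of non-promoter peaks in the list. These comparisons were not matched for distance: 12 of the 15 lay within 5 kb of a TSS, against 16.2% of non-promoter peaks in the list. The part of distance in the difference of composition was not tested. The Hoxc4 peak, at 49.3% GC and a CpG ratio of 0.13, and the Hoxa13 peak, at 36.1% GC, were the poorest in CpG and in GC. Promoter peaks of Hox genes had a median GC of 59.5%, against 63.3% for all promoter peaks, and a median CpG ratio of 0.77 against 0.78. Of the 10, 3 lay above the GC median of all promoter peaks and 4 above their CpG median. GC above 50% together with a CpG ratio above 0.6 was found in 9 of the 10 (90%), against 74.8%. The clusters are known for CpG islands over many of their genes, and the annotation of the list labelled 2 Hox peaks as CpG island (8.00%, against 2.21% of the list). It gives each peak 1 label, and Hox peaks at promoters, exons and UTRs carried those labels instead. These are therefore not the shares of peaks that overlap an island.

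**Figure D4:**
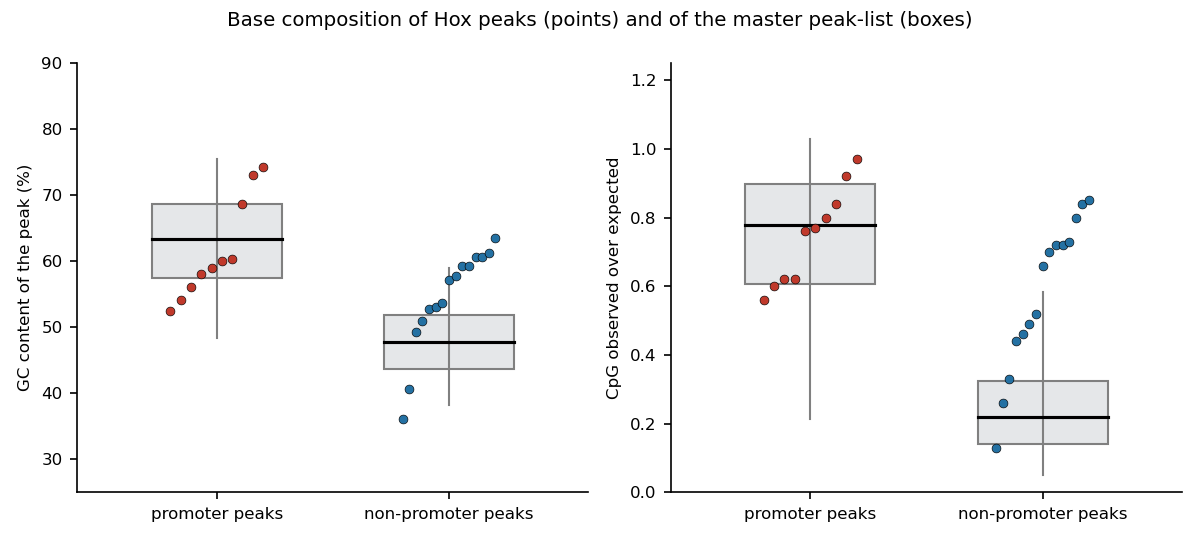
GC content in % (left) and observed over expected CpG (right) of each Hox peak (points, sorted) beside the whole master peak-list (line at the median, box from the 25th to the 75th percentile, line from the 5th to the 95th). Promoter peaks of Hox genes spread over the box of all promoter peaks, while most non-promoter Hox peaks sit above the box of all non-promoter peaks.

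Composition at the TSS did not separate Hox genes with and without a promoter peak clearly. In windows from 250 bp before to 50 bp after the TSS, the 10 genes with a promoter peak had a median GC of 58.8% (48.0 to 70.3%) and a median CpG ratio of 0.80, and the 29 without had 55.0% (39.7 to 85.0%) and 0.62, so that the ranges overlapped. GC above 50% with a CpG ratio above 0.6 was found in 6 of 10 and 15 of 29 windows. Of the 32851 promoter windows in the RefSeq table, 33.3% had both.

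For each of 9 factors, a consensus word was searched on both strands of the peaks. The NF-Y word CCAAT was the most common, in 6 of 10 promoter peaks (60%, against 44.3% of promoter peaks in the list) and in 8 of 15 non-promoter peaks (53.3%, against 45.5%). The TALE word TGACAG, bound by the Meis and Pknox partners of Hox proteins, was in 4 of 10 promoter peaks (40.0%, against 24.9%), among them those of Hoxa3, Hoxa4 and Hoxb4, and in 4 of 15 non-promoter peaks (26.7%, against 35.6%). The PU.1 word GAGGAAGT was in 2 of 10 promoter peaks (20%, against 4.79%), among them that of Hoxb1, and in 1 of 15 others (6.67%, against 10.2%). PU.1 is a factor of myeloid and B cells.

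The GATA word AGATAA was in no promoter peak (against 8.66%) and in 5 of 15 non-promoter peaks (33.3%, against 26.9%): those of Hoxa3, Hoxb6 and Hoxb8 and both distal peaks of Hoxb1. The CDX word, bound by caudal homeodomain proteins that act on Hox genes in the embryo, was likewise in 0 of 10 promoter peaks (against 7.85%) and 3 of 15 others (20%, against 24.4%), of Hoxa7, Hoxa9 and Hoxb1. The HOX-PBX word was in 0 of 10 promoter peaks (against 1.69%) and 1 of 15 others (6.67%, against 5.92%). None of the 25 peaks held the words of 3 factors: the RUNX word AACCACA, held by 16.1% of the list, the core of the CTCF site, held by 7.68%, and the retinoic acid response element, held by 0.642%. For 0 of 25, the 95% Wilson interval reaches 13.3%, and it covers counting error only. The share of the list lay outside the Wilson interval of the Hox peaks for RUNX over all peaks and for PU.1 in promoter peaks, whose interval ran from 5.67 to 51.0%. For the other words, and for these 2 in the other peak classes, it lay inside. The RUNX word was in 5.88% of promoter and 18% of non-promoter peaks of the list, both inside the interval of that class. Promoter peaks made up 40.0% of Hox peaks against 15.6% of the list. The RUNX difference over all peaks was thus not matched for class, and the part of class or base content in it was not tested. The PU.1 share rested on 2 peaks. In the central 200 bp of the peaks, neither held: the RUNX word was in 0 of 25 Hox peaks against 9.87% of the list, and the PU.1 word in 1 of 10 promoter peaks against 2.68%, both inside the Wilson interval. With 1 mismatch the PU.1 word was in 4 of 10 promoter peaks (40.0%) against 48.9%, the other direction.

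**Figure D5:**
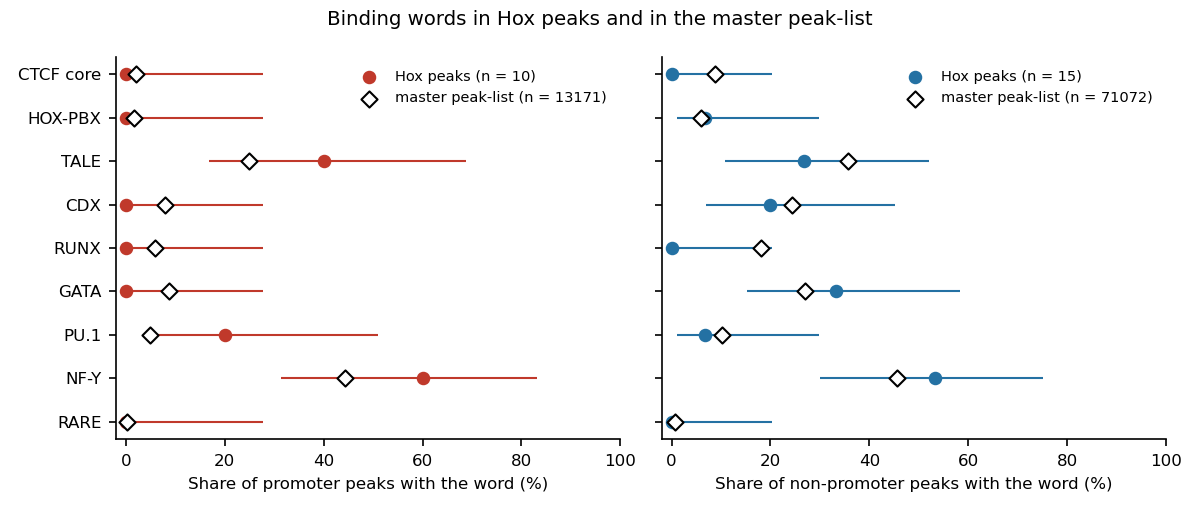
Share in % of promoter peaks (left) and non-promoter peaks (right) that hold each consensus word, for Hox peaks (filled points, with 95% Wilson intervals) and the whole master peak-list (open diamonds). The intervals of the 10 and 15 Hox peaks are wide, and NF-Y and TALE words are the most common in Hox promoter peaks.

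CTCF, an insulator protein, is known to bind within Hox clusters, so the search for its core was widened. It was in none of the 28 peaks inside the 4 intervals, and with 1 mismatch allowed in 7 of the 25 Hox peaks (28.0%, against 28.9% of the list). The nearest peak with an exact core was 48.5 kb from the posterior end of HoxB, in an intron of Ttll6, and is shown as chr11:96145746-96145805 on the plus strand, with the core, on the opposite strand, in capitals. On the other sides, and around the other clusters, the nearest such peak was 140 to 697 kb away.
Ttll6 intron peak: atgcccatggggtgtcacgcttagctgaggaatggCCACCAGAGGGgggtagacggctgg

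Partners and regulators of Hox genes had promoter peaks more frequently than the Hox genes themselves. Of the 9 TALE cofactor genes, which encode DNA-binding partners, 8 (88.9%) had a promoter peak, all but Pbx3, and they had 52 peaks, of which 39 (75%) were distal. Meis1, known to act with Hoxa9 in leukemia, had 18 peaks, with 1 promoter peak. Of 15 regulators, 12 (80%) had a promoter peak, including the activators Kmt2a, Men1, Dot1l and Psip1, the Polycomb genes Ezh2, Eed, Suz12, Bmi1, Ring1 and Rnf2, and Ctcf and Rad21. The 3 without were Cdx1, Cdx2 and Cdx4, and Cdx4 had no peak at all. The promoter shares stand beside 52.9% of all protein-coding genes. TALE cofactor genes had 5.78 peaks per gene, against 3.31 over all protein-coding genes, where 58.1% of peaks were distal.

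Other homeobox genes of the ANTP class, to which Hox genes belong, gave a closer comparison. Of 43 such genes, 11 (25.6%) had a promoter peak, the same share as among Hox genes. They were Gbx1, Gbx2, Meox2, Gsx1, Dlx1, Dlx6, Nkx2-3, Msx1, Hhex, Barx2 and Vax2. A peak at any distance was assigned to 35 of the 43 (81.4%), against 53.8% of Hox genes. These ANTP genes had 2.58 peaks per gene, against 0.641 per Hox gene and 3.31 over all protein-coding genes. Of their peaks 57.7% were distal, against 12.0% for Hox genes and 58.1% for all protein-coding genes. Cdx1, Cdx2 and Cdx4 were counted both here and among the regulators. A gene outside a cluster has more sequence nearest to its TSS, and the part of this in the difference from Hox genes was not tested.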

How the data were processed

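Sorted cells of 12 samples were profiled by ATAC-seq. Reads had been aligned to mm10 by the authors through ENCODE's pipeline, with multimapping reads left out. They concatenated the optimal peak-lists of the 6 cell types, kept non-overlapping peaks with chromVAR and annotated them with HOMER 4.10.2, per the labels. The deposited list gives the positions of 84243 peaks of 499 bp and their distances from a TSS. The score column in the deposited list was 0 throughout, and depth per sample is unknown. Hox peaks were selected by gene name.

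Genes, TSSs and sequence came from RefSeq GRCm38.p6 (release 108), with curated transcripts only. Intervals of shares are 95% Wilson intervals. The response element was searched as direct repeats 2 or 5 bases apart, and sequence was aligned with Biopython. On simulated data, 200 of 200 planted words and 500 of 500 TSS distances were found. Members, gene lists and words were chosen with earlier results of these data known. All 39 Hox genes were counted, but some members are not reported here by name, value or sequence, and 1 was left out of the figures that show single genes. Otherwise, full values were given for the marker genes, in each cluster the genes with the most and the farthest peaks, and neighbours at or inside the clusters. Promoter width, TSS source, class limits, name rule, merging, distal limit, intervals, word search and CpG islands were varied. Python 3.11.15, numpy 2.4.6, pandas 2.3.3, Biopython 1.88 and matplotlib 3.10.9 were used.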

Additional observations from a re-analysis of the deposited data

How the results depend on the processing

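Of 65 values under another setting, 41 stayed within 1.5 times the value given or within its 95% Wilson interval. The number of Hox genes with a promoter peak, 10 at 500 bp, was 2 at 100 bp, both in HoxA, where 4 became 2, with 0 in HoxB, HoxC and HoxD. From 1000 bp upstream to 100 bp downstream it was 6, with 1 in HoxB and 0 in HoxD. It was 12 at 1000 bp, 10 with curated TSSs and 11 with the first coding base, a setting chosen after seeing the data, under which the anterior class held 3 genes and the central class 5. With group 4 counted as anterior, the central class held 1. The share of all genes was counted at 500 bp only. Whether Hox genes stay below it at the other widths is therefore not shown. The CpG island label of the authors' annotation, which gives each peak 1 label only, was on 8.00% of Hox peaks against 2.21% of the list. By base content of the peak, the share was 68.0% against 15%. In the central 200 bp, the words of HOX-PBX, TALE, CDX, GATA, PU.1 and NF-Y were in 0, 16.0, 0, 8.00, 4.00 and 24.0% of Hox peaks, against 1.69, 17.1, 7.93, 11.2, 7.08 and 21.0% of the list. With 1 mismatch, the CTCF core was in 28.0% against 28.9%, PU.1 in 44.0% against 60.1% and HOX-PBX in 60% against 60.9%, the last with 60% against 30.7% in promoter peaks alone. The counts of Hox peaks, distal peaks and peaks per 10 kb stayed within 1.5 times under every alternative run. A stricter score could not be tried, since the score is 0 in every peak, and leaving out a replicate could not be run. No paired analysis was possible because the list holds no column per sample. Without reads per peak, a site missing from the list may be closed or below detection in all samples. It may also have been called in a cell type and dropped when the authors filtered the joined list. An open site cannot be placed in a cell type.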
